A study of Mus musculus with 6 samples.

Results

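Nuclear factor kappa-B (NF-κB) is a family of transcription factors built from pairs of Rel proteins. In resting cells, inhibitor of kappa-B (IκB) proteins hold these pairs in the cytoplasm until the IκB kinase (IKK) marks the inhibitors for destruction, and the freed pairs then turn on genes of inflammation, cell survival and their own inhibitors. In peripheral nerve, NF-κB is known from Schwann cells (SCs) during development and after injury, and from endothelial and immune cells. Described here are 10 genes of the family in the sciatic nerve of newborn mice. They are the 5 subunit genes (*Nfkb1*, *Nfkb2*, *Rel*, *Rela* and *Relb*) and 5 feedback genes (*Nfkbia*, *Nfkbie*, *Nfkbiz*, *Tnfaip3* and *Bcl3*), which code for IκB proteins and the deubiquitinating enzyme A20. They were chosen by symbol, and 10 of 10 were found among the 59485 entries of the deposited table and passed the filter on low values that left 25802 entries to test.

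Sciatic nerves were collected at P4 from 3 controls, whose genotype is labelled wild-type, and from 3 mutants, labelled Ht-PA-Cre; Adar1fl/fl;R26R. In the mutants, the promoter of human tissue plasminogen drives Cre in neural crest (NC) cells, the source of SCs, where it deletes both floxed copies of *Adar* (the gene of ADAR1), and R26R is a YFP tracer of the recombined cells. In the study's crosses every pup inherits R26R and at least 1 floxed *Adar1* allele, so that a control called wild-type is an animal without Cre that carries 1 or both of these floxed copies intact. Each animal gave 1 library, made from whole nerve, so that each value sums SCs with endothelial cells, fibroblasts, immune cells and blood, and fewer cells of a type cannot be told apart from less RNA per cell. *Adar* itself was at 1602, 2066 and 1133 in control replicates and at 11768, 9311 and 9773 in mutant replicates (log2 fold change 2.72, standard error 0.20), which goes against the deletion in the label. The table holds 1 value per gene, so that reads of the deleted segment are not separate from the rest. "Controls" and "mutants" below therefore stand for the libraries labelled so, and each direction rests on these labels.

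The starts of several of these genes hold letters that match the κB consensus, the DNA pattern that NF-κB is known to bind, and those sequences are shown first because the family is known to induce its own inhibitors through such sites. RefSeq promoter windows (build GRCm38.p6), from 250 bases before to 50 bases after a start, were given for 7 of the 10 genes, as 10 windows (not *Nfkb1*, *Relb* or *Nfkbiz*). The κB consensus, searched on both strands, was found in windows of 6 genes (*Nfkb2*, *Rel*, *Nfkbia*, *Nfkbie*, *Tnfaip3* and *Bcl3*) and not in that of *Rela*. By window, it was found in 8 of these 10, against 8.46% of all 32851 windows, and windows of the same gene can overlap. Capitals mark the bases matching the κB consensus on either strand, each run reads 5′ to 3′ on the gene's strand, and positions count backwards from -1, the base before the start. The run of *Nfkbia* (chr12:55492648-55492787, minus strand) has its match at -29 to -20, that of *Nfkbie* (chr17:45555560-45555699, plus strand) at -106 to -97, and that of *Tnfaip3* (chr10:19015411-19015547, minus strand) at -125 to -116 and again at -12 to -3.
Nfkbia: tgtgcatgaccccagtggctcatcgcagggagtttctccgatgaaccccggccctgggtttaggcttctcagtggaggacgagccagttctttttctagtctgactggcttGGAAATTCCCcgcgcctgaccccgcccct
Nfkbie: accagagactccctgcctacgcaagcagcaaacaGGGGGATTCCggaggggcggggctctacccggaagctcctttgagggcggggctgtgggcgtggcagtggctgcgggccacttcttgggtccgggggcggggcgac
Tnfaip3: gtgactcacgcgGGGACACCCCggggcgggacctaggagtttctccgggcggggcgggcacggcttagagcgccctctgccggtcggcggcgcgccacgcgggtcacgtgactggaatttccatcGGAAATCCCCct

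Among the subunit genes, *Rel* (chr11:23770971-23771109, minus strand) holds overlapping matches at -92 to -82, and the first *Nfkb2* start has matches at -39 to -29 and at -11 to -2, shown as a piece of 23 bases (chr19:46304692-46304714, plus strand) and a piece of 18 bases (chr19:46304719-46304736, plus strand). In *Bcl3* the match lay past the start, at positions 3 to 12, and is not shown. For contrast, a piece of 82 bases from the *Rela* window is shown (chr19:5637401-5637482, plus strand). The search of the whole window found no match, which says only that these letters are not in it.
Rel: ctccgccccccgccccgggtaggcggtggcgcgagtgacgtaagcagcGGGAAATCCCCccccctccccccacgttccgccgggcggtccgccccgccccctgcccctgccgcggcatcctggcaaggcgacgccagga
Nfkb2, first piece: cgtcacGGGAATTCCCCccctcg
Nfkb2, second piece: gccgaaaGGGGCTTTCCc
Rela: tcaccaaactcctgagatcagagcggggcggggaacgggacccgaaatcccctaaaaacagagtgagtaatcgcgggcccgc

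The form GGGNNTTTCC, whose matches in these windows all lay within κB consensus matches, was found in windows of 4 of the 7 genes (*Nfkb2*, *Rel*, *Nfkbia* and *Tnfaip3*). By window, that was 6 of the 10, against 1.63% of all windows. For comparison with interferon signaling, the core of the interferon-stimulated response element, GAAANNGAAA, was in none of the 10 windows and in 3.44% of all windows. The core of the gamma-activated site, TTCNNNGAA, was in a window of 1 gene, *Nfkb2*, and in 8.3% of all windows. These matches describe letters in a window and were not tested for binding.

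The 10 genes were all higher in mutants than in controls. limma called 10 of 10 higher (adjusted p at or under 0.05), the adjustment covering all 25802 genes tested, whereas 19% of those genes were called higher and 16% lower. At the study's limits (2-fold or more, with an unadjusted p no higher than 0.05), 8 of 10 were called, against 13.9% of the genes tested. In 10 of 10, the lowest mutant value lay above the highest control value, which held for 25.9% of the genes tested. The median log2 fold change of the 10 was 1.90, from 0.45 for *Rela* to 3.23 for *Bcl3*, and that of all genes tested was 0.03. The feedback genes had a median of 2.28 and the subunits 1.45. The count was 10 without mutant replicate 2, 8 without control replicate 2, and 9 without any one of the other 4 libraries, and *Rel* and *Rela* were the genes lost.

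**Figure D1:**
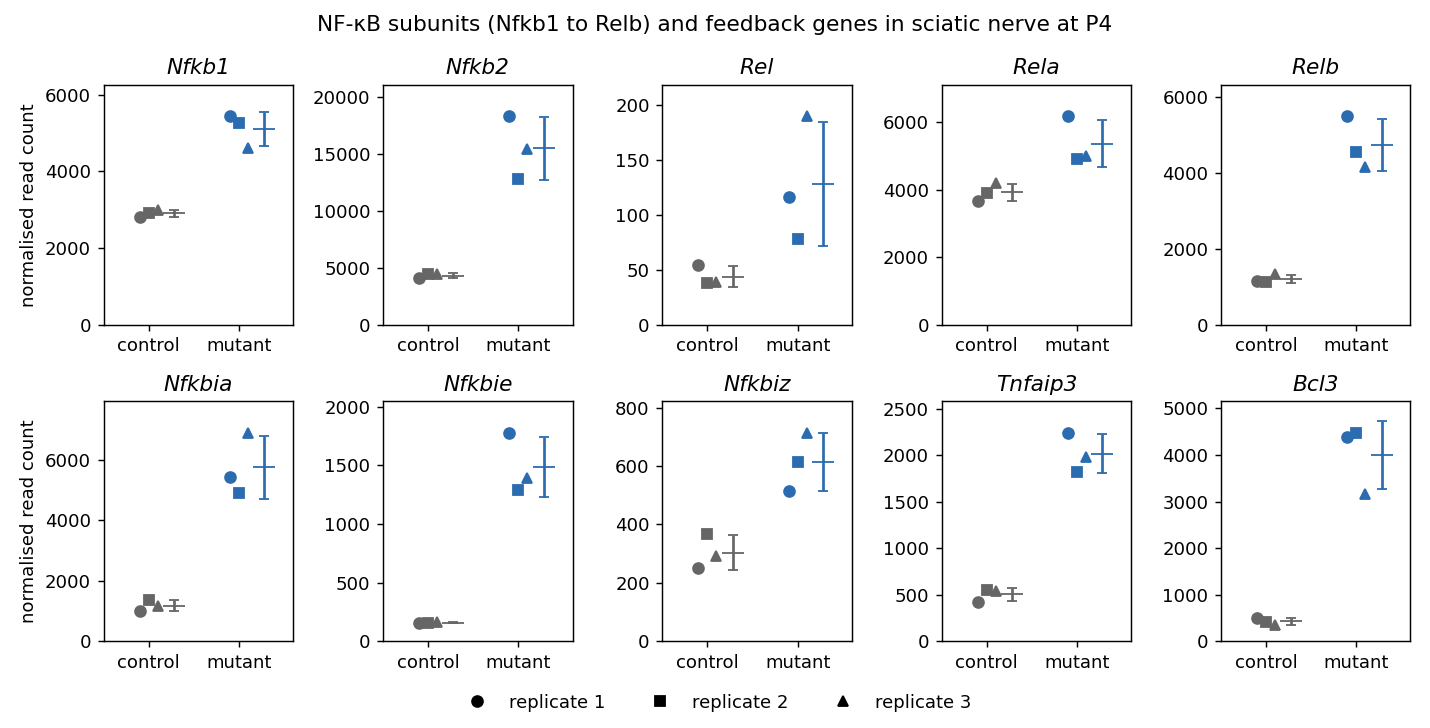
Normalised read count (y axis, linear, from 0) of each NF-κB gene in 3 control (grey) and 3 mutant (blue) libraries, with the mean and SD of each genotype beside the points. In each of the 10 panels the mutant points sit above the control points, and the gap is relatively smallest in *Rela*, between a control at 4191 and a mutant at 4923.

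Of the subunits, *Nfkb2* (chromosome 19, 46304319 to 46312385), which codes for p100, the precursor of p52 and itself an IκB-like inhibitor, had normalised read counts of 4059, 4456 and 4415 in controls and 18279, 12758 and 15383 in mutants. The mutants spread more than the controls, yet the lowest of them was far above every control. *Nfkb2* rose 3.55-fold (log2 fold change 1.83, standard error 0.13, adjusted p = 3.27e-05 from limma). Entries of the opposite strand overlap both of its ends. One of them, *4833438C02Rik*, had values of 563 to 652 in controls and 878 to 1336 in mutants (log2 fold change 0.72, standard error 0.18, adjusted p = 0.0165). The other entry, *Psd*, was not called and had values of 89.0 to 247 over the 6 libraries. *Relb* (chromosome 7, 19606217 to 19629439) codes for RelB, the usual partner of p52 in the non-canonical branch of the pathway. Its values were 1147, 1128 and 1332 in controls and 5495, 4546 and 4159 in mutants. *Relb* rose 3.92-fold (log2 fold change 1.97, standard error 0.13, adjusted p = 2.32e-05), so that both genes of the non-canonical pair had changes of similar size.

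The genes of the canonical pair changed less. *Nfkb1* (chromosome 3, 135584657 to 135691547), the gene of p105 and p50, had values of 2812, 2907 and 2999 in controls and 5440, 5271 and 4616 in mutants, tight in both genotypes. It rose 1.75-fold (log2 fold change 0.81, standard error 0.10, adjusted p = 0.000447 from limma), under the 2-fold limit. The study, whose limits include that 2-fold change, counts *Nfkb1* among the genes without a significant difference. *Ube2d3*, a gene of the opposite strand whose entry overlaps one end of *Nfkb1*, had higher values (7027, 7118 and 7094 in controls, 10524, 9376 and 10909 in mutants) and also rose (log2 fold change 0.53, standard error 0.09, adjusted p = 0.00222 from limma). Whether the counting used strand is not given in the sources used here, and reads in such an overlap cannot be told apart if it did not. *Rela* (chromosome 19, 5637480 to 5648130), which codes for p65, the main activating subunit, had values of 3678, 3904 and 4191 in controls and 6182, 4923 and 5006 in mutants. Mutant replicate 1 was the highest, and the other mutants were close to each other and above the controls. *Rela* rose 1.36-fold (log2 fold change 0.45, standard error 0.11, adjusted p = 0.0172). A share of 32.5% of the genes tested had a larger log2 fold change. The call on *Rela* was lost without control replicate 1 (adjusted p = 0.0531), without control replicate 2 (0.0576), and with limma's variance trend left out (0.0812). An unnamed entry of the opposite strand that overlaps the end of *Rela* had values of 80.1 to 193 over the 6 libraries and was not called.

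*Rel* (chromosome 11, 23741517 to 23770970), which codes for c-Rel, a subunit best known from lymphoid and myeloid cells, had values of 54.4, 37.8 and 39.3 in controls and 116, 78.2 and 190 in mutants. The reads of its entry numbered between 31 and 49 in controls and between 81 and 192 in mutants, the fewest of the 10 genes. That entry leaves out an untranslated stretch of *Rel*, which is a separate entry with higher values, described under Other observations. The mutants differed widely among themselves, with replicate 3 far above replicate 2. *Rel* rose 2.74-fold (log2 fold change 1.45, standard error 0.42, adjusted p = 0.0264). This call was lost without control replicate 2 (adjusted p = 0.0735), control replicate 3 (0.071), mutant replicate 1 (0.0703) or mutant replicate 3 (0.1), with log2 fold changes between 1.12 and 1.76 over the libraries left out.

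Of the feedback genes, *Nfkbia* (chromosome 12, 55489409 to 55492647) codes for IκBα, the inhibitor that NF-κB rapidly resynthesizes after activation. Its values were 988, 1370 and 1181 in controls and 5423, 4909 and 6887 in mutants. All mutants were several times higher than any control, and *Nfkbia* rose 4.85-fold (log2 fold change 2.28, standard error 0.16, adjusted p = 3.16e-05). *Nfkbie* (chromosome 17, 45555699 to 45563169) codes for IκBε, an inhibitor of RelA and c-Rel pairs. Its values were 159, 152 and 163 in controls and 1779, 1292 and 1396 in mutants. The controls were nearly equal, and *Nfkbie* rose 9.28-fold (log2 fold change 3.21, standard error 0.17, adjusted p = 8.31e-06).

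*Bcl3* (chromosome 7, 19808462 to 19822755) codes for an atypical, nuclear IκB that joins p50 or p52 pairs on DNA. It had values of 510, 410 and 355 in controls and 4378, 4479 and 3167 in mutants. *Bcl3* rose 9.41-fold (log2 fold change 3.23, standard error 0.18, adjusted p = 1.11e-05). A share of 4.46% of the genes tested had a larger log2 fold change. The difference between its log2 fold change and that of *Nfkbie* was smaller than either standard error, so that these genes have no order between them. An unnamed entry of the opposite strand covers the whole of *Bcl3*, with values of 20.3 to 48.2 in controls and 170 to 210 in mutants, so that the same limit on strand applies.

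*Tnfaip3* (chromosome 10, 19000913 to 19015410), the gene of A20, which trims ubiquitin chains upstream of IKK, had values of 419, 550 and 540 in controls and 2240, 1821 and 1985 in mutants. It rose 4.02-fold (log2 fold change 2.01, standard error 0.15, adjusted p = 4.24e-05). *Nfkbiz* (chromosome 16, 55811375 to 55838899), the gene of IκBζ, a nuclear co-activator at *Il6* and other secondary response genes, changed least of the feedback genes. Its values were 250, 369 and 293 in controls and 516, 615 and 714 in mutants, separated but closer than for the other feedback genes. *Nfkbiz* rose 2.03-fold (log2 fold change 1.02, standard error 0.21, adjusted p = 0.00587). It fell short of 2-fold without control replicate 1 (log2 fold change 0.89), without mutant replicate 3 (0.91), after rescaling to the 75th percentile of genes (0.95), and with a pseudocount of 10 (0.999).

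**Figure D2:**
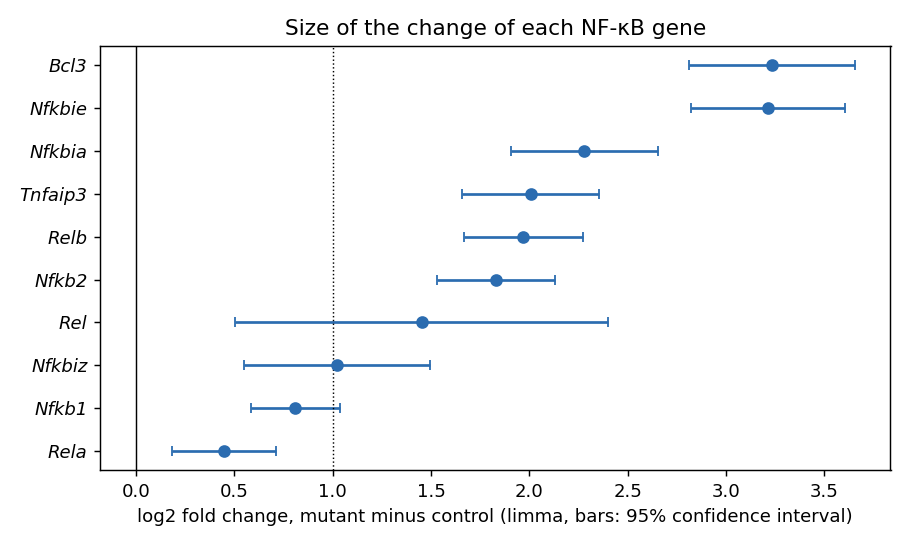
Log2 fold change of each NF-κB gene, mutant minus control, from limma (x axis), with 95% confidence intervals as bars and the 2-fold limit as a dotted line. *Bcl3* (3.23) and *Nfkbie* (3.21) lie farthest to the right, *Rel* has the widest interval, and *Nfkb1* and *Rela* lie left of the dotted line.

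No mutant library was highest for all of the genes. Mutant replicate 1 held the highest mutant value of 6 genes, replicate 3 of 3 genes and replicate 2 of 1 gene. *Nfkbia*, *Nfkbiz* and *Rel* were highest in mutant replicate 3, and *Bcl3* was highest in replicate 2.

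Ratios between these genes inside a library do not depend on how libraries were scaled, and they show how the makeup of the family differed between genotypes. The smallest p that an exact two-sided permutation test allows for 3 libraries against 3 is 0.1, which 7 of the 8 ratios examined reached (0.114 adjusted over the 8), so that none passes 0.05 and the values are given as a description. The lengths counted per gene were not used, and only the difference of a ratio between genotypes is read, on the log2 scale. The log2 ratio of *Relb* to *Rela* was -1.68, -1.79 and -1.65 in controls and -0.17, -0.11 and -0.27 in mutants, a difference of 1.52 (standard error 0.06). The ratios were nearly the same within a genotype and wide apart between genotypes. The log2 ratio of *Nfkb2* to *Nfkb1* was 0.53, 0.62 and 0.56 in controls and 1.75, 1.28 and 1.74 in mutants, a difference of 1.02 (standard error 0.16). The log2 ratio of *Rel* to *Rela* differed by 1.01 (standard error 0.43), and without mutant replicate 3 by 0.63. Each mutant library thus held more *Relb* RNA relative to *Rela*, and more *Nfkb2* RNA relative to *Nfkb1*, than any control library.

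Among the inhibitors the balance shifted in both directions. The log2 ratio of *Nfkbia* to *Rela*, an inhibitor relative to its main target, was -1.89, -1.51 and -1.83 in controls and -0.19, -0.00396 and 0.46 in mutants, a difference of 1.83 (standard error 0.23). *Nfkbie* relative to *Nfkbia* was higher in the mutants by 0.93 (standard error 0.25), and *Nfkbiz* relative to *Nfkbia* was lower, with a difference of -1.26 (standard error 0.12). *Bcl3* relative to *Nfkb1* had the widest difference of the 8, at 2.42 (standard error 0.20). *Tnfaip3* relative to *Nfkbia* was the only ratio whose genotypes overlapped, with a difference of -0.27 (standard error 0.16, exact permutation p = 0.2).

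**Figure D3:**
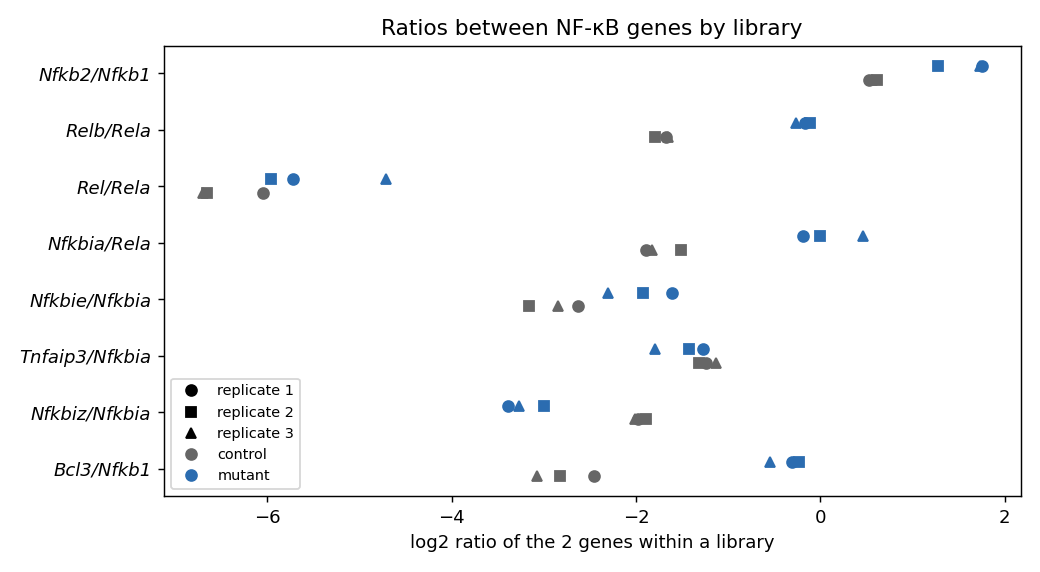
Log2 ratio of 2 NF-κB genes within each library (x axis), with controls in grey and mutants in blue and a marker shape per replicate number. The genotypes are separate in 7 of the 8 rows and overlap for *Tnfaip3* relative to *Nfkbia*.

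The other genes of the pathway were taken as 8 lists by role, 87 genes in all, of which 85 passed the filter. limma called 51 of the 85 higher and 2 lower, and 32 were not called. Over all genes tested, 19% were called higher and 16% lower, which is the background for each list below. Of the 85, 10 passed the filter through the mutants alone, where they were higher by construction, and 5 of the 51 called higher were among these. In the 75 that passed in both genotypes, 46 were called higher and 2 lower, and their median log2 fold change was 0.95 (1.08 over the 85). Differences between lists were not tested.

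Of 10 ligand genes tested, 6 rose and 4 were not called. In the 7 that passed the filter in both genotypes, 5 rose and the median log2 fold change was 2.09. *Tnf*, the prototype activator of the canonical branch, went from 61.2 ± 28.3 to 212 ± 22.6 (SD, n = 3 each, log2 fold change 1.87, standard error 0.37, adjusted p = 0.00521 from limma). *Ltb*, which codes for lymphotoxin β, an activator of the non-canonical branch, had values of 28.9, 13.2 and 30.4 in controls and 149, 141 and 49.5 in mutants. *Ltb* rose (log2 fold change 2.11, standard error 0.57, adjusted p = 0.0206). The call was lost without control replicate 2, mutant replicate 1 or mutant replicate 2 (highest adjusted p = 0.0821). *Il1b*, the gene of interleukin-1β, was not called, with values of 0, 0 and 24.1 in controls and 10.2, 34.7 and 51.4 in mutants. It was called without control replicate 3, the only control with reads (adjusted p = 0.0127).

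Of 10 receptor genes, 7 rose and 3 were not called. These 7 were among the 9 that passed the filter in both genotypes. *Tnfrsf1a*, which codes for the main TNF receptor, had values of 3084, 3075 and 2528 in controls and 8811, 8493 and 7210 in mutants, a 2.82-fold rise (standard error 0.12 on the log2 scale). *Tnfrsf1b*, the gene of the second TNF receptor, had values of 179, 163 and 100.1 in controls and 492, 347 and 568 in mutants (log2 fold change 1.68, standard error 0.29). *Ltbr*, which codes for the lymphotoxin β receptor, rose by 0.68 on the log2 scale (standard error 0.11), from 2740 ± 201 (SD, n = 3) to 4387 ± 378 (SD, n = 3). *Cd40*, a co-stimulatory receptor that feeds the non-canonical branch, was not called (adjusted p = 0.143 from limma), with values of 68.8, 101 and 1.27 in controls and 169, 118 and 182 in mutants. Without control replicate 3, the lowest, its log2 fold change was 0.87 instead of 2.61, and it was still not called.

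Of 13 genes that act between the receptors and IKK, the NF-κB-inducing kinase (NIK) and adaptor proteins among them, 7 rose and 6 were not called (median log2 fold change 0.49). *Map3k14*, the gene of NIK, which starts the non-canonical branch, had values of 175, 154 and 134 in controls and 646, 409 and 507 in mutants (log2 fold change 1.73, standard error 0.23, adjusted p = 0.000711 from limma). *Traf2*, an adaptor at TNF receptors, rose by 1.86 (standard error 0.17) and *Myd88*, the adaptor of toll-like and interleukin-1 receptors, by 1.79 (standard error 0.11) on the log2 scale. *Traf3*, which codes for an adaptor needed for the destruction of NIK, rose by 0.75 (standard error 0.19, adjusted p = 0.0155 from limma). This call was lost without control replicate 2 or mutant replicate 3 (highest adjusted p = 0.0595). The RNA of NIK and that of this adaptor were thus both higher in the mutants.

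Of 8 genes of the IKK subunits, of the kinase TAK1 with its binding proteins and of the kinase RIPK1, 4 rose and 4 were not called (median log2 fold change 0.43). *Ripk1*, whose protein joins TNF receptors to these complexes, rose from 1230 ± 156 to 2600 ± 207 (SD, n = 3 each, log2 fold change 1.08, standard error 0.13), and its call held in all 6 fits that left out a library (highest adjusted p = 0.00321 from limma). *Tab2*, the gene of a TAK1-binding protein, rose by 0.50 on the log2 scale (standard error 0.11), a call that also held in those 6 fits (highest adjusted p = 0.0293) and was lost without limma's trend (0.0575). *Ikbkg*, the gene of the scaffold NEMO, rose from 550 ± 17.8 to 783 ± 91.4 (SD, n = 3 each, log2 fold change 0.50, standard error 0.14), and *Chuk*, the gene of IKKα, from 1950 ± 147 to 2516 ± 247 (log2 fold change 0.37, standard error 0.12). The calls on *Ikbkg* and *Chuk* were lost in 4 of the 6 fits that left out a library, with adjusted p up to 0.075 for *Ikbkg* and 0.14 for *Chuk*. The call on *Chuk* was also lost with no filter on low values (adjusted p = 0.0529), after rescaling to the 75th percentile (0.0719) and without limma's trend (0.113). *Ikbkb*, the gene of IKKβ, was not called (log2 fold change 0.15, standard error 0.09), except after rescaling to the same total (0.31, adjusted p = 0.0341). *Map3k7*, the gene of TAK1, which activates IKK, was not called (-0.05, standard error 0.10). Of the 3 genes of the linear ubiquitin ligase, 1 rose. This was *Rnf31*, the gene of its catalytic subunit HOIP, which went from 1199 ± 182 to 2319 ± 303 (SD, n = 3 each, log2 fold change 0.95, standard error 0.15).

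Of 15 further IκB and negative regulator genes, 7 rose and 8 were not called (median log2 fold change 0.65). *Nfkbid*, the gene of the nuclear protein IκBNS, rose from 72.7 ± 6.22 to 215 ± 20.5 (SD, n = 3 each, log2 fold change 1.55, standard error 0.25), and *Nfkbib*, the gene of IκBβ, by 0.60 (standard error 0.14) on the log2 scale, a call lost without limma's trend (adjusted p = 0.0629). *Tnip1*, a ubiquitin-binding partner of A20, rose by 0.80 (standard error 0.12). *Cyld*, a deubiquitinase of the same steps, rose by 0.65 (standard error 0.17, adjusted p = 0.0169 from limma), and the call was lost without control replicate 3 or mutant replicate 3 (highest adjusted p = 0.0615), or without the trend (0.0626). *Zc3h12a*, the gene of the RNase regnase-1, was not called (0.70, standard error 0.31).

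Of 20 classical target genes tested, 16 rose, 1 fell and 3 were not called. In the 17 that passed the filter in both genotypes, 14 rose, 1 fell and the median log2 fold change was 2.60, while *Il6* and *Cxcl2* were among the 3 that passed through the mutants alone. *Il6*, a cytokine gene, had values of 9.99, 0 and 0 in controls and 508, 479 and 412 in mutants, a difference of 7.71 (standard error 0.91) on the log2(value + 1) scale. *Ccl2*, which codes for a monocyte attractant, had values of 530, 643 and 560 in controls and 22367, 18702 and 26652 in mutants (log2 fold change 5.28, standard error 0.14, adjusted p = 8.4e-07 from limma). The mutants of both genes were tight and far from the controls. *Cxcl1* and *Cxcl2*, which code for neutrophil attractants, rose by 4.29 (standard error 0.27) and 5.82 (standard error 0.84) on the log2 scale, the latter from 0, 9.45 and 2.53 in controls. With controls this near 0, the size of the change depends on the pseudocount and on single controls. At pseudocounts of 10 and 0.1 the log2 difference was 3.88 and 7.11 for *Cxcl2* and 5.24 and 9.96 for *Il6*. It was 4.95 for *Cxcl2* without control replicate 1 and 6.65 without control replicate 2, and 8.86 for *Il6* without control replicate 1. The adhesion molecule genes *Vcam1* and *Icam1* rose from 919 ± 167 to 11202 ± 1904 and from 387 ± 162 to 2594 ± 290 (SD, n = 3 each). *Birc3*, which codes for the ubiquitin ligase cIAP2, and *Cflar*, which codes for the caspase-8 inhibitor c-FLIP, rose by 2.43 (standard error 0.18) and 1.35 (standard error 0.29).

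Not all targets followed. *Sod2*, which codes for mitochondrial superoxide dismutase, fell, from 6995, 6888 and 6977 in controls to 4468, 4488 and 4609 in mutants (log2 fold change -0.62, standard error 0.08, adjusted p = 0.000586 from limma). *Traf1*, an adaptor gene often used as a readout of NF-κB, was not called, with values of 288, 191 and 179 in controls and 159, 128 and 130 in mutants (log2 fold change -0.63, standard error 0.27). All mutant values of both genes lay below all control values. Of 6 genes known as targets of the non-canonical branch, 3 rose, 1 fell and 2 were not called, and 3 of the 6 passed the filter through the mutants alone. The genes of this list are named after their values were seen. The riser that passed in both genotypes was *Madcam1*, which codes for an adhesion molecule, with values of 25.5, 19.8 and 11.4 in controls and 594, 439 and 360 in mutants. The others were *Cxcl13*, with 8.88, 0 and 0 in controls and 369, 28.9 and 95 in mutants, and *Glycam1*, with 0 in every control and 48, 35.7 and 9.89 in mutants. The gene that fell was *Cxcl12*, a chemokine gene, with values of 6505, 5240 and 5483 in controls and 2899, 4197 and 2390 in mutants.

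**Figure D4:**
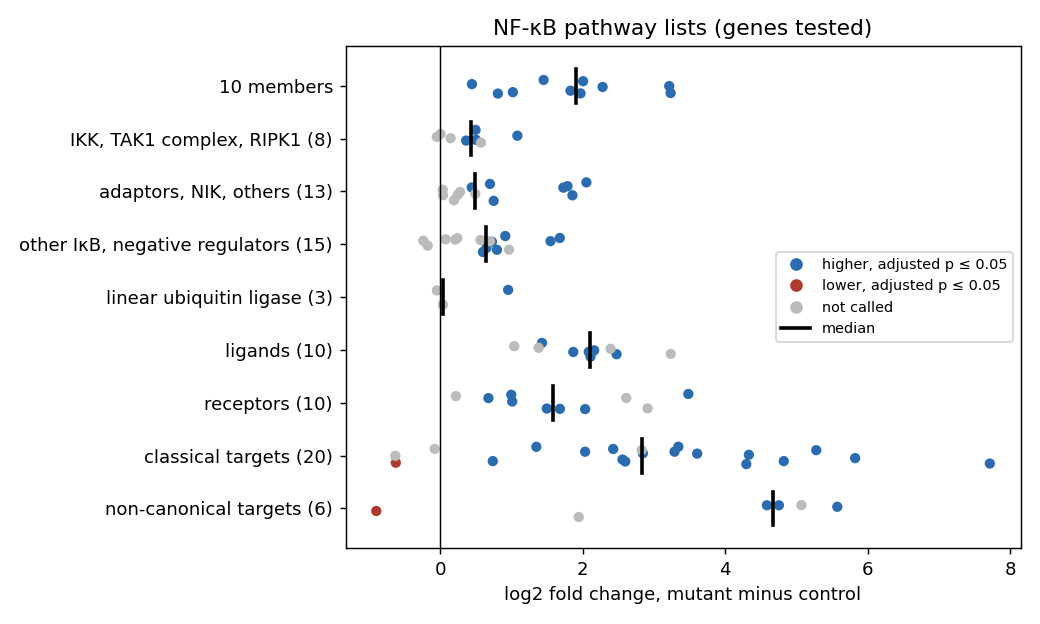
Log2 fold change, mutant minus control (x axis), of the 10 NF-κB subunit and feedback genes and of the genes tested in 8 pathway lists, 1 point per gene, coloured by limma's call, with a black bar at each list's median. The medians of the lists of IKK and TAK1 complexes with RIPK1, of adaptors with NIK, and of the linear ubiquitin ligase lie between 0.04 and 0.49. The order of the target lists depends on the pseudocount, with medians of 2.84 (classical) and 4.67 (non-canonical) at 1, and 2.61 and 2.57 at 10.

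Markers of some other cell types differed between the genotypes too. Of 10 macrophage markers, 5 rose and 2 fell, and their summed level was 20144 to 25681 in controls and 21942 to 25204 in mutants. Of 7 endothelial markers, 3 rose, with sums of 13316 to 20398 in controls and 19695 to 25981 in mutants. The T and NK cell markers, 7 of 8 in the table, summed to 82.4 to 175 in controls and 289 to 391 in mutants, and *Cd3d*, *Cd8a*, *Cd8b1* and *Ncr1* were at 0 in every control. The 2 called higher, *Cd8a* and *Ncr1*, passed the filter through the mutants alone, and *Cd3e*, *Cd3g* and *Cd4* were not called. No B cell or neutrophil marker was called, with sums of 113 to 151 and 52.9 to 204 in controls and 81 to 110 and 77.1 to 623 in mutants. Of 8 SC markers, all with reads in every library, 6 fell, and their sum was 1137600 to 1505410 in controls and 58038 to 214076 in mutants. All 5 erythroid markers fell (54904 to 76993 in controls, 5110 to 15703 in mutants), as did 3 of 6 fibroblast markers (2492100 to 2894380 in controls, 1015170 to 1489830 in mutants), and no mast cell or adipocyte marker was called (3757 to 11868 and 5305 to 11315 in controls, 4123 to 4762 and 3177 to 23388 in mutants). Skeletal muscle markers, 5 of 6 higher, summed to 6110 to 32211 in controls and 40330 to 306302 in mutants, with 94055, 40330 and 306302 in mutant replicates 1, 2 and 3, each above every control. The part of these cells in the changes of the NF-κB genes was not tested.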

How the data were processed

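Oriented cDNA of the poly-A fraction of sciatic nerves from 6 animals (3 per genotype) was sequenced, and the reads were mapped by the authors to mm10 with STAR 2.4.0. The authors counted reads on constitutive regions of FAST DB genes and deposited a normalised signal per gene and library, the count divided by a DESeq2 size factor. The table holds 59485 entries, 35979 of them without a symbol, and coordinates are those of the table. Divided by what 1 read is worth in its library, 100% of the values gave whole numbers (tolerance 0.001), so that reads were recovered. They numbered 50938349 to 78250094 per library. Depth sets the precision of entries with few reads, such as that of *Rel*. Since reads carry no molecular identifiers, PCR copies count as separate reads.

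log2(value + 1) was fitted with limma (lmFit, eBayes with trend) as mutant minus control on the 25802 entries whose mean reached 10 in the controls or in the mutants. A gene was called at a Benjamini-Hochberg adjusted p at or under 0.05 over all entries tested, and the study's limits (p at or under 0.05, at least 2-fold) were counted beside it. The pseudocount shrinks fold changes where reads are few. Groups come from the genotype labels, and p-values measure the spread between animals. Ratios used an exact two-sided permutation test. The 10 genes, the pathway and marker lists and the genes named from them, picked by role, were chosen with earlier results of these data known. The alternatives were 11 settings, among them edgeR's quasi-likelihood test and DESeq2 on recovered reads, and leaving out each of the 6 libraries. Statistics were tested on simulated data. R 4.3.3, limma 3.58.1, edgeR 4.0.16, DESeq2 1.42.0, Python 3.11.15, scipy 1.17.1 and matplotlib 3.10.9 were used.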

Additional observations from a re-analysis of the deposited data

How the results depend on the processing

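The count of the 10 NF-κB genes called higher was 8 to 10 with a library left out and 9 or 10 under the 11 other settings, and the count past 2-fold was 7 or 8 in both. Of 170 refits of single genes among the 10, 163 kept direction and call, 7 lost the call (4 for *Rel* and 3 for *Rela*) and 0 reversed. Of the pathway genes, 44 to 52 were called higher with a library left out and 43 to 53 under other settings. The count called lower was 2, and 1 without limma's trend, where *Cxcl12* had an adjusted p of 0.0504. *Map3k7*, not called, changed sign after rescaling to the same total (0.12) and ranged from -0.0934 to 0.00924 with a library left out, the latter without mutant replicate 2. Rescaling to the same total moved the median of all genes tested to 0.19, and the log2 fold change of *Rela* to 0.61. Deviations of libraries with the same replicate number correlated at -0.06, -0.06 and 0.01, and those with unlike numbers at -0.02 to 0.07. No pairing by number was thus seen, but 3 libraries per genotype make this a weak check, and a shared litter or batch was not tested. With a replicate block, 10 of the 10 genes and 48 pathway genes were called higher. *Chuk* (adjusted p = 0.0605 from limma) and *Ikbkg* (0.062) were then among those not called.

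Few reads limit the *Rel* entry, with 31 in control replicate 3, and *Il6*, *Cxcl2*, *Il1b* and *Cd40*, which had from 0 to 107 reads in a control. For *Rel* this is not depth alone, since an untranslated stretch of the gene is a separate entry with higher values, described below.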

Other observations

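Of 29 other entries that overlap an NF-κB gene or lie within 20000 bp of it, 23 were tested, 5 rose and 6 fell, where 19% of all genes tested were called higher and 16% lower. The 3 without a symbol among those that rose are named here after their values were seen. One of them (GSMG0006428, chromosome 11, 23736849 to 23740359, minus strand) lies wholly inside an annotated exon of *Rel* in GENCODE M21, in its untranslated part. It had values of 694, 668 and 786 in controls and 1717, 1246 and 1554 in mutants, well above those of the *Rel* entry itself, and its log2 fold change was 1.06 (standard error 0.15, adjusted p = 0.00103 from limma), against 1.45 (standard error 0.42) for *Rel*. Its libraries were more even within each genotype than those of *Rel*.

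On the strand opposite *Bcl3*, an entry of nearly the same extent (GSMG0068763, chromosome 7, 19808461 to 19822755) had values of 26.7, 48.2 and 20.3 in controls and 170, 210 and 189 in mutants (log2 fold change 2.63, standard error 0.40). GENCODE annotates *Gm16174* and *Gm16175* on that strand, and reads of both strands cannot be told apart if strand was not used in the counting. Past the end of *Nfkb2*, by 1716 bp on the same strand, a further entry (GSMG0019763, chromosome 19, 46314101 to 46315373) had values of 1136, 1360 and 1512 in controls and 4009, 3698 and 3073 in mutants (log2 fold change 1.43, standard error 0.15). It overlaps exons of *Psd*, which lies on the other strand and had a log2 fold change of -0.82 (standard error 0.33).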
